A study of Mus musculus with 10 samples.

Results

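The nuclear genes of mitochondrial complex I were taken as every protein-coding row of the deposited table whose gene name starts with Nduf, which gave 47 of 21936 protein-coding genes and of 55952 rows in all. Of these, 39 are named as subunits and 8 (the Ndufaf genes) as assembly factors, and 6 further Nduf rows annotated as pseudogenes were left out. The RNA came from kidneys of mice of the common inbred strain C57BL/6, housed for 30 days at 400 m (5 control libraries) or at 4200 m (5 hypoxia libraries). For both groups the labels list no other treatment and no allele, and they give neither age nor sex. Transcripts of whole tissue were sequenced and are given as FPKM, fragment counts scaled to gene length and to library size. No label says that each library is a different mouse, so the p-values reflect only how these libraries vary. Altitude cannot be told apart from the site where each group was housed.

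Complex I is the entry point of electrons from NADH into the respiratory chain, and it pumps protons across the inner mitochondrial membrane while passing electrons to ubiquinone. Its peripheral arm is made of the N module, which oxidises NADH, and the Q module, which reduces ubiquinone. The membrane arm is built around proteins of the mitochondrial genome, and its nuclear subunits are usually grouped by the mitochondrial protein they are assembled with (ND1, ND2, ND4 and ND5 parts). A small core of subunits carries the flavin, the iron-sulfur clusters and the proton path, the remaining (supernumerary) subunits surround it, and assembly factors help build the enzyme without staying in it. The tubules of the kidney, above all the proximal tubule, are rich in mitochondria because they reabsorb solutes by active transport.

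The libraries held between 16561672 and 17845464 reads on genes, recovered from the FPKM values. Hypoxia replicates 4 and 5 stood apart from the other libraries in markers of other tissues. The 5 B cell markers summed to 0.991 to 1.72 FPKM in controls, 5.0 to 5.49 FPKM in hypoxia replicates 1 to 3, 15.5 FPKM in hypoxia replicate 4 and 447.4 FPKM in hypoxia replicate 5. Replicate 5 also held the 5 pancreas acinar markers at 31.0 FPKM, against at most 0.401 FPKM in the other libraries and 3 of the 5 at 0 in all controls. Adrenal cortex markers reached 1026.5 FPKM and fat markers 657.0 FPKM in replicate 4. The 12 proximal tubule markers summed to between 26759.3 and 32731.4 FPKM in controls and to between 12283.7 and 26315.5 FPKM in hypoxia, most of it from Kap, an androgen-dependent gene. The 11 others summed to between 3538.4 and 4424.8 FPKM in controls, to between 3699.6 and 4044.6 FPKM in hypoxia replicates 1 to 3, and to 3483.0 and 2071.8 FPKM in replicates 4 and 5. The 3 brown fat markers summed to between 0.534 and 28 FPKM in controls and to at most 2.61 FPKM in hypoxia. The tissue label was kidney while the labels' protocol names the retina, and the 7 retina markers summed to at most 0.656 FPKM in any library. Of the other kidney cell types, the 5 podocyte markers summed to between 77.9 and 97.0 FPKM in controls, to between 112.7 and 144.0 FPKM in hypoxia replicates 1 to 3, and to 146.6 and 70.7 FPKM in replicates 4 and 5. With all libraries 1 of the 5 rose, and without replicates 4 and 5 all 5 did (5 of 5 by limma, median log2 fold change 0.50). The 6 intercalated cell markers summed to between 93.8 and 103.5 FPKM in controls, to between 113.4 and 139.3 FPKM in hypoxia replicates 1 to 4, and to 144.9 FPKM in replicate 5. In replicate 5, 88.3 FPKM of this came from Slc4a1, also a gene of red blood cells, whereas Atp6v1g3, Slc26a4, Atp6v0d2 and Foxi1 were at 8.31, 13.4, 7.15 and 3.63 FPKM, each below its lowest control. None of the 6 was called with or without replicates 4 and 5 (limma, 1 at an unadjusted p under 0.05 in each fit). The sums for the thick ascending limb, the distal convoluted tubule, principal cells and endothelium overlapped between the groups. By limma 1 of 7, 1 of 4, 0 of 6 and 0 of 6 of these markers fell and 0 rose, with and without replicates 4 and 5. Of the 12 proximal tubule markers 2 fell and 0 rose, and without these replicates 2 fell and 1 rose. Over all tested genes 7.79% fell. The part of these markers in the results below was not tested. The leading values are therefore also given without hypoxia replicates 4 and 5, as are the counts of lists that change without them.

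The 15264 genes whose mean reached 0.5 FPKM were tested on log2(FPKM + 0.5) with limma, and a gene was called at a Benjamini-Hochberg adjusted p under 0.05 over all of them. Of the 47 members 46 were tested. Complex I subunit genes were lower in hypoxia as far as they were called: 14 of 38 tested subunit genes fell and 0 rose, against a background of 7.79% of all tested genes that fell and 3.66% that rose. At an unadjusted p under 0.05, 24 subunit genes were lower and 0 higher, against 16.8% of all tested genes that were lower and 12.3% that were higher, and limma voom on the recovered reads called 14 lower and 0 higher (6.07% and 5.12% of all genes). The median log2 fold change (hypoxia minus control) of the 38 subunit genes was -0.34, against 0.01 over all tested genes and -0.15 over the 2389 tested genes that averaged 20 FPKM or more, of which 18.0% fell and 34.7% were lower at an unadjusted p under 0.05. In 37 of 38 the log2 fold change was below 0, and under the other scalings of the libraries this held for 34 to 37 of 38. Because whole kidney was sequenced, fewer cells of a type and less RNA per cell cannot be told apart.

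Among the 8 Ndufaf genes 3 fell and 0 rose, with a median log2 fold change of -0.24 and values below 0 in 8 of 8. At an unadjusted p under 0.05, 5 were lower and 0 higher, and voom called 1 lower and 0 higher. Without hypoxia replicates 4 and 5 the counts were 13 of 38 subunit genes (median -0.22) and 2 of 8 Ndufaf genes (median -0.14), against 7.75% of the 14724 genes tested then. Of genes that averaged 20 FPKM or more, as did 33 of the 38 subunit genes, 16.9% fell in that fit, with a median of -0.09. Of the 17 members called over all libraries, 14 were also among the 15 called without these 2 libraries. Ndufa13, Ndufaf8 and Ndufc2 were no longer called, and Ndufs5 was called in addition. Leaving out control replicate 1, 2 or 3 or hypoxia replicate 4 in turn, 7, 7, 8 and 7 subunit genes were called. For the Ndufaf genes the corresponding counts were 0, 0, 1 and 1, and 1 without control replicate 4. The share of all tested genes that fell was lower in these fits too. It was 3.94%, 3.96%, 4.44% and 4.99%, and 6.49% without control replicate 4, against 7.79% with all libraries. Ndufa1, Ndufa2, Ndufa3, Ndufb3, Ndufb6, Ndufs6 and Ndufv3 were called under each of the 22 alternative settings that were run. The other 10 lost the call under some, and Ndufa13 and Ndufc2 were called in 9 of 22. Leaving out control replicates 1 to 5 in turn ended the call of 10, 10, 8, 3 and 4 of the 17, and leaving out hypoxia replicates 1 to 5 that of 5, 1, 5, 9 and 0, with adjusted p up to 0.116.

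**Figure D1:**
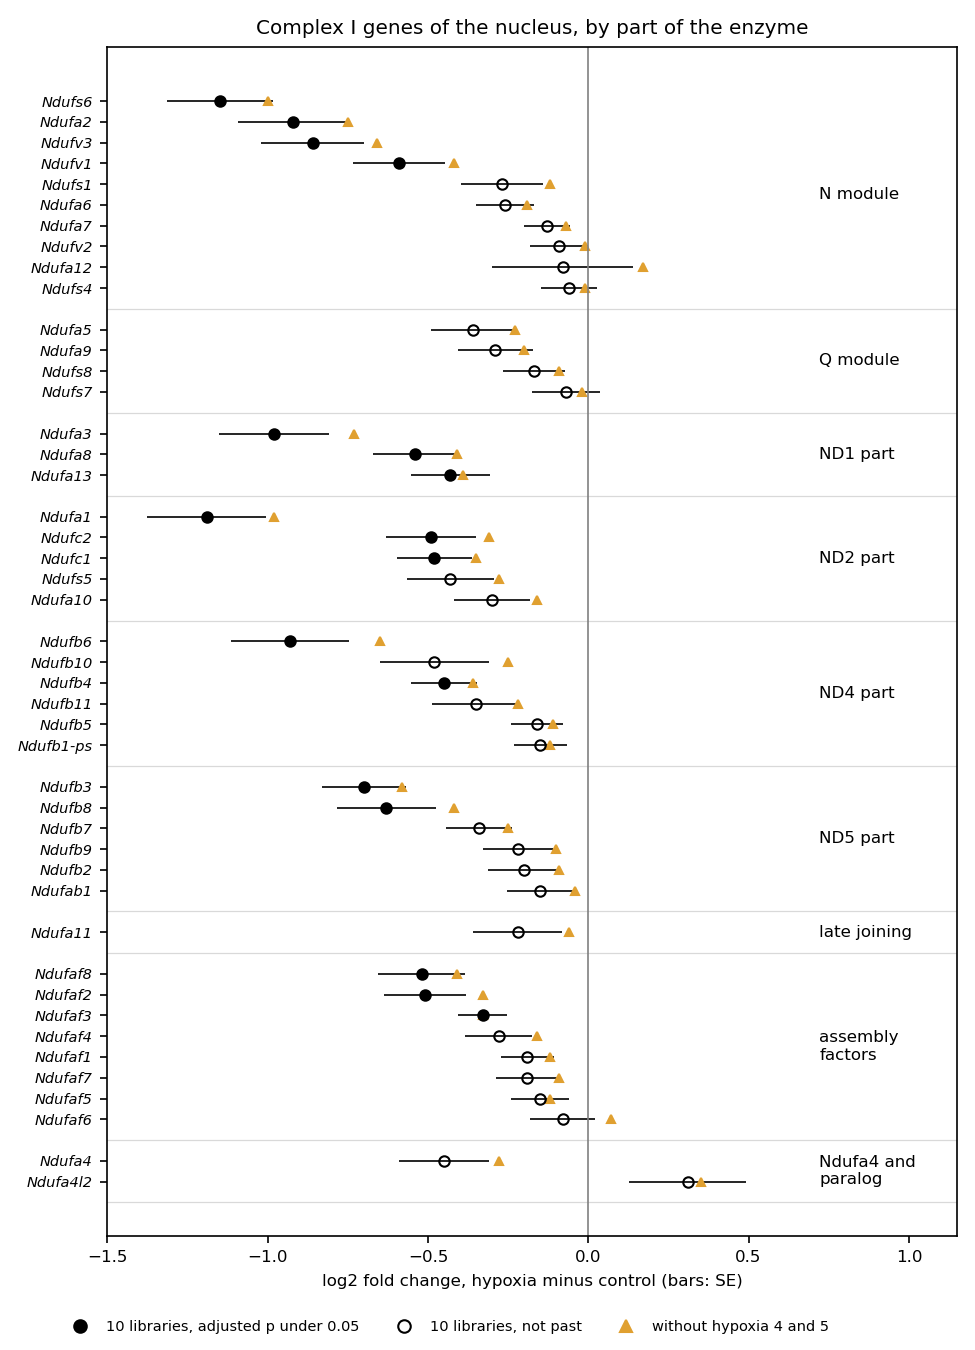
Log2 fold change (hypoxia minus control, horizontal axis) of 45 tested genes, grouped by the part of the enzyme; circles are the fit over 10 libraries with bars of 1 SE, filled at an adjusted p under 0.05, and triangles are the fit without hypoxia replicates 4 and 5. The 17 filled circles all lie left of 0, and Ndufa1 at -1.19 and Ndufs6 at -1.15 lie farthest from it.

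In control kidneys the subunit genes ranged from 2.17 FPKM (Ndufb2) to 292.1 FPKM (Ndufa4), with a median of 82.2 FPKM over the 38 tested. The Ndufaf genes ranged from 4.82 to 25.2 FPKM with a median of 13.8 FPKM, and 32 of 38 subunit genes lay above the highest of them. Reads on subunit genes made up 0.482% ± 0.0246 of all reads in controls and 0.388% ± 0.0478 in hypoxia (SD, n = 5 each). Their share was 0.460% to 0.517% in controls and 0.310% to 0.440% in hypoxia, so the groups did not overlap. For the Ndufaf genes the share was 0.0208% ± 0.000981 in controls and 0.0180% ± 0.00135 in hypoxia, and again the highest hypoxia library (0.0195%) was below the lowest control (0.0198%).

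The upstream sequences of 4 members are shown, because these genes differ in the motifs that are discussed for nuclear genes of the respiratory chain: Ndufs6 and Ndufa1 had the smallest p, Ndufb4 held matches to 2 factors, and Ndufv1 is the only core subunit that was called. Each is the 250 bases before the RefSeq start site in GRCm38.p6, read 5′ to 3′ on the minus strand, with matches to the motifs in capitals. Ndufs6 is at chr13:73328483-73328732, with GCGCCTGCG in capitals, a match to the motif of NRF1, a transcription factor of nuclear genes for mitochondrial proteins. Ndufb4 is at chr16:37654369-37654618, with 3 NRF1 matches and 1 match to the motif of the estrogen-related receptors (ERR). Ndufv1 is at chr19:4012756-4013005 and Ndufa1 at chrX:37191239-37191488, both with the core letters of the hypoxia response element, in Ndufv1 on both strands of the same 6 bases. The windows of Ndufs6, Ndufb4 and Ndufv1 reach 60, 85 and 51 bases into the gene as the deposited table bounds it, which places the start farther upstream.
Ndufs6: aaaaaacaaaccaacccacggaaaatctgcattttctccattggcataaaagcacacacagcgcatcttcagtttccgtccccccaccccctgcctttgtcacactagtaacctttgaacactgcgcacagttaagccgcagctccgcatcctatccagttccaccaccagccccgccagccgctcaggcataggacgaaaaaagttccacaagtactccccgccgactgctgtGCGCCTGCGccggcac
Ndufb4: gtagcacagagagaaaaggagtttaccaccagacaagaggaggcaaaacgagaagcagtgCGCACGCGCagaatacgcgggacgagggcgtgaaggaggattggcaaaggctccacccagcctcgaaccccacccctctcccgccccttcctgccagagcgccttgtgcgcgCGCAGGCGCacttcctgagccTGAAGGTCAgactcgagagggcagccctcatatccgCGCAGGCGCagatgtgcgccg
Ndufv1: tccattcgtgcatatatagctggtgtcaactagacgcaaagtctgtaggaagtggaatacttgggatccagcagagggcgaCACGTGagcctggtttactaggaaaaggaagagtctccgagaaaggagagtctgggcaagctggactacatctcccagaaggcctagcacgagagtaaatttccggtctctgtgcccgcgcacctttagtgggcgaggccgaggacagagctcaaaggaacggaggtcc
Ndufa1: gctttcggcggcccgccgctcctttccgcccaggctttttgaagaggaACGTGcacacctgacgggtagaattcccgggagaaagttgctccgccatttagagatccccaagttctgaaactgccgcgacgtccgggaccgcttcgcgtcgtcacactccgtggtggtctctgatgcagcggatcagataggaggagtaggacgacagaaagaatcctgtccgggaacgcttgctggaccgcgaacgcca

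A RefSeq upstream window was found for 41 of the 47 members, and motifs were searched as letters on both strands. The relaxed NRF1 motif GCGCNTGCG, which includes the strict form GCGCATGCG, was in 9 of 41 members (22.0%: Ndufa11, Ndufa12, Ndufa5, Ndufa8, Ndufaf4, Ndufb10, Ndufb4, Ndufs5 and Ndufs6), against 5.88% of 27025 genes. The strict form was in 3 members (Ndufa11, Ndufa8 and Ndufaf4), which is 7.32% against 1.64%. Of subunit genes that fell, 3 of 13 with a window held the relaxed motif, and of subunit genes not called 5 of 20 did. The ERR motif TNAAGGTCA was in 1 member (Ndufb4; 2.44%, against 1.3%), the YY1 motif AANATGGCG in 2 (Ndufa7 and Ndufb11; 4.88%, against 1.29%), and the GABPA motif ACCGGAAGT in 0 of 41, against 0.892%. The letters ACGTG, the core of the hypoxia response element, were in 6 members (14.6%), against 18.5% of all genes. These are matches of letters in a fixed window and describe no binding. The 27025 genes were not matched to the members in expression or in GC content. The shares therefore do not tell whether a motif is particular to complex I genes.

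The N module accepts electrons from NADH, and 4 of its 10 tested genes fell, with a median log2 fold change of -0.26 over the 10. Ndufs6 encodes a supernumerary subunit that binds zinc and joins the module late, and it lies on chromosome 13 (73319838 to 73328542, minus strand, GRCm38). It stood at 98.4, 87.6, 76.7, 80.2 and 68.5 FPKM in control replicates 1 to 5 and at 34.9, 55.8, 34.5, 31.9 and 30.2 FPKM in hypoxia replicates 1 to 5. All hypoxia libraries lay below all controls, and hypoxia replicate 2 lay well above the other 4. The means were 82.3 ± 11.3 and 37.5 ± 10.4 FPKM (SD, n = 5), and the log2 fold change was -1.15 (SE 0.165, adjusted p = 0.00319 by limma). Without hypoxia replicates 4 and 5 it was -1.0 (limma adjusted p = 0.00909).

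Ndufa2 encodes a small supernumerary subunit with a thioredoxin-like fold and lies on chromosome 18 (36742332 to 36744557, minus strand). Its FPKM were 199.9, 187.9, 179.4, 155.8 and 156.8 in controls and 91.5, 132.9, 92.6, 94.2 and 62.9 in hypoxia. The groups did not overlap, and replicate 2 was again the highest hypoxia library (log2 fold change -0.92 with an SE of 0.172, adjusted p = 0.00929 by limma, and -0.75 without replicates 4 and 5). Ndufv3, on chromosome 17 (31520115 to 31531331, plus strand), encodes a supernumerary subunit at the NADH-oxidising end of the enzyme. It had 40.6, 40.8, 36, 33.1 and 37.9 FPKM in controls and 21.0, 26.9, 23.2, 20.7 and 13.2 FPKM in hypoxia. The hypoxia libraries were again all lower (log2 fold change -0.86 with an SE of 0.161, adjusted p = 0.00938 by limma, and -0.66 without replicates 4 and 5).

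Ndufv1, the core subunit that binds NADH and the flavin, fell from 108.7 ± 9.16 to 73.1 ± 15.1 FPKM (log2 fold change -0.59 with an SE of 0.143, adjusted p = 0.0269 by limma). Its control values ran from 96.6 to 118.7 FPKM with a median of 111.3, and its hypoxia values from 51.3 to 93.2 FPKM with a median of 72.4, without overlap. The other 6 genes of the module were not called, with log2 fold changes from -0.27 (Ndufs1) to -0.06 (Ndufs4). Ndufs4 and Ndufa12, which join the module late in assembly, had log2 fold changes of -0.06 and -0.08. In Ndufa12, hypoxia replicate 2 was at 32.5 FPKM while the other hypoxia libraries were at 11.9 to 19.6 FPKM and the controls at 17.4 to 22.8 FPKM. The processed pseudogene Ndufa12-ps, which matches part of Ndufa12, was at its lowest in that same library. It had 61.2 FPKM there, 67.6 to 106.1 FPKM in the other hypoxia libraries and 112.4 to 151.8 FPKM in controls. How reads that match both were counted is not given, so the row of Ndufa12 alone does not give its level.

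Among the nuclear subunits 1 of 6 tested core subunits fell (median log2 fold change -0.22), and 13 of 30 supernumerary subunits fell (median -0.40). Without hypoxia replicates 4 and 5 these counts were 1 of 6 and 12 of 30. Over all tested genes 7.79% fell, and 18.0% of those that averaged 20 FPKM or more. The 9 subunit genes of at most 1000 bases, of which 7 fell, are all supernumerary. The shortest tested core gene, Ndufs8, has 1291 bases. Whether core and supernumerary subunits differ, also at like gene length, was not tested. Ndufs1, which holds iron-sulfur clusters of the N module, ranged from 33.8 to 41.1 FPKM in controls (median 39.5) and from 22.4 to 36.3 FPKM in hypoxia (median 34.7). Ndufv2, the small flavoprotein subunit, ranged from 82.3 to 95.7 FPKM (median 89.7) and from 69.2 to 92.4 FPKM (median 85.2). In both genes the groups overlapped, and hypoxia replicate 5 gave the lowest value.

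None of the 4 Q module genes described here was called by limma (0 of 4, also with voom), 2 had an unadjusted p under 0.05, and the median log2 fold change was -0.23. Ndufs7, which carries the last iron-sulfur cluster before ubiquinone, had 64.8 to 80.0 FPKM in controls (median 73.8) and 54.6 to 76.2 FPKM in hypoxia (median 71.4). Ndufs8, with iron-sulfur clusters of the same chain, had 88.6 to 104.5 FPKM (median 99.2) and 70.2 to 93.4 FPKM (median 90.8). Ndufa5 and Ndufa9, the supernumerary members, had log2 fold changes of -0.36 and -0.29 (limma adjusted p = 0.105 and 0.127).

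Ndufs3, a core subunit of the Q module, was listed at no more than 0.0274 FPKM, which is 1 read in each of control replicates 1 and 3 and hypoxia replicate 1 and 0 reads in the other 7 libraries. It was therefore not tested. A processed pseudogene, Gm12251, covers 75.7% of the longest Ndufs3 transcript at 95% identity or more. It was at 12.8 ± 1.70 FPKM in control and 10.7 ± 3.48 FPKM in hypoxia libraries (SD, n = 5, limma adjusted p = 0.357). How reads that match both were counted is not given in the sources used here, so neither row gives the level of Ndufs3.

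All 3 genes of the ND1 part fell (3 of 3, median log2 fold change -0.54), and 2 of 3 did without hypoxia replicates 4 and 5. Ndufa3 encodes a small subunit with a membrane helix and lies on chromosome 7 (3617373 to 3620327, plus strand). It was at 104.8, 93.9, 90.1, 82.2 and 76.8 FPKM in controls and at 50.2, 61.7, 49.3, 38.1 and 30.9 FPKM in hypoxia. The highest hypoxia value lay below the lowest control (log2 fold change -0.98 with an SE of 0.172, adjusted p = 0.0074 by limma, and -0.73 without replicates 4 and 5). Ndufa8, a subunit on the intermembrane side held by disulfide bonds, fell from 129.2 ± 12.4 to 89.8 ± 15.3 FPKM (SD, n = 5, limma adjusted p = 0.0274). Ndufa13, also studied under the name GRIM-19, fell from 96.8 ± 12.5 to 71.6 ± 9.69 FPKM (SD, n = 5, limma adjusted p = 0.0459), with touching groups and an adjusted p of 0.0544 without replicates 4 and 5. Of the exon bases of Ndufa13, 30.0% are overlapped on the other strand by Tssk6, which was at 0.725 FPKM in control and 0.942 FPKM in hypoxia libraries.

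In the ND2 part 3 of 5 genes fell (median log2 fold change -0.48). Ndufa1, an X-linked gene (37187588 to 37191163, minus strand) for a very small subunit with a membrane helix, had the largest log2 fold change of the members. Its FPKM were 275.4, 224.6, 197.5, 205.1 and 178.8 in controls and 102.1, 130.2, 95.6, 90.1 and 62.3 in hypoxia. Even hypoxia replicate 2, the highest of its group, was well below control replicate 5, the lowest of its own. The means were 216.3 ± 36.9 and 96.1 ± 24.4 FPKM (SD, n = 5), with a difference of -1.19 on the log2 scale (SE 0.185, adjusted p = 0.0047 by limma) and of -0.98 without replicates 4 and 5 (limma adjusted p = 0.00537). The number of reads behind these values ran from 1245 to 1932 in controls and from 476 to 991 in hypoxia.

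Ndufc1 and Ndufc2, further membrane subunits of this part, fell by 0.48 and 0.49 on the log2 scale (limma adjusted p = 0.0271 and 0.0481). In Ndufc2 the groups overlapped through control replicate 4, which at 96.3 FPKM lay below hypoxia replicate 1 at 101.0 FPKM. Ndufs5 was not called over all libraries (-0.43, limma adjusted p = 0.0686) and was called without replicates 4 and 5 (-0.28, limma adjusted p = 0.0383). Its groups did not overlap, from 83.5 to 97.4 FPKM in controls and from 46.7 to 78.4 FPKM in hypoxia. Ndufa10, a subunit related to nucleoside kinases, had a log2 fold change of -0.30 (limma adjusted p = 0.130).

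The ND4 part had 2 of 6 genes called lower (median log2 fold change -0.40). Ndufb6, a membrane subunit on chromosome 4 (40270591 to 40279421, minus strand), had 118.8, 117.3, 110.4, 97.9 and 98.9 FPKM in controls and 63.2, 78.3, 66.0, 48.7 and 36.5 FPKM in hypoxia. The groups were clearly apart (log2 fold change -0.93 with an SE of 0.183, adjusted p = 0.0118 by limma), and without replicates 4 and 5 the difference was -0.65 (limma adjusted p = 0.00551). Smim27 overlaps 39.0% of its exon bases on the other strand and was at 2.28 FPKM in control and 2.07 FPKM in hypoxia libraries. Ndufb4, on chromosome 16 (37647170 to 37654453, minus strand), had 73.4, 72.5, 67.7, 61.9 and 61.4 FPKM in controls and 54.7, 57.1, 45.5, 47.8 and 41.4 FPKM in hypoxia. Here the gap between the groups was narrow, between 57.1 and 61.4 FPKM (log2 fold change -0.45 with an SE of 0.103, adjusted p = 0.0212 by limma). Ndufb10, Ndufb11, Ndufb5 and Ndufb1-ps were not called, with log2 fold changes from -0.48 to -0.15. Ndufb1-ps carries the suffix of a pseudogene and the biotype of a protein-coding gene, and RefSeq names this gene Ndufb1.

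Of the ND5 part 2 of 6 genes fell (median log2 fold change -0.28). Ndufb3, on chromosome 1 (58586384 to 58595964, plus strand), encodes a small membrane subunit and was at 104.0, 104.3, 88.9, 89.4 and 91.3 FPKM in controls and at 58.5, 81.0, 54.1, 56.3 and 47.5 FPKM in hypoxia. Hypoxia replicate 2 came closest to the controls without reaching them (log2 fold change -0.70 with an SE of 0.132, adjusted p = 0.0099 by limma, and -0.58 without replicates 4 and 5). Ndufb8, often used as a protein marker of assembled complex I, fell from 37.0 ± 4.11 to 24.2 ± 5.90 FPKM (SD, n = 5, limma adjusted p = 0.0286), although hypoxia replicate 2 at 32.9 FPKM exceeded control replicate 5 at 32.3 FPKM. Ndufb7, Ndufb9, Ndufb2 and Ndufab1 were not called, with log2 fold changes from -0.34 to -0.15. On the same strand other genes overlap 4.26% of the exon bases of Ndufb8 (Gm20538), 19.5% of those of Ndufb9 (Gm49356) and 2.58% of those of Ndufb2. The levels of these overlapping genes are not given here. Ndufa11, which joins late at the border of the membrane arm, was not called either (-0.22, limma adjusted p = 0.308, and -0.06 without replicates 4 and 5).

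**Figure D2:**
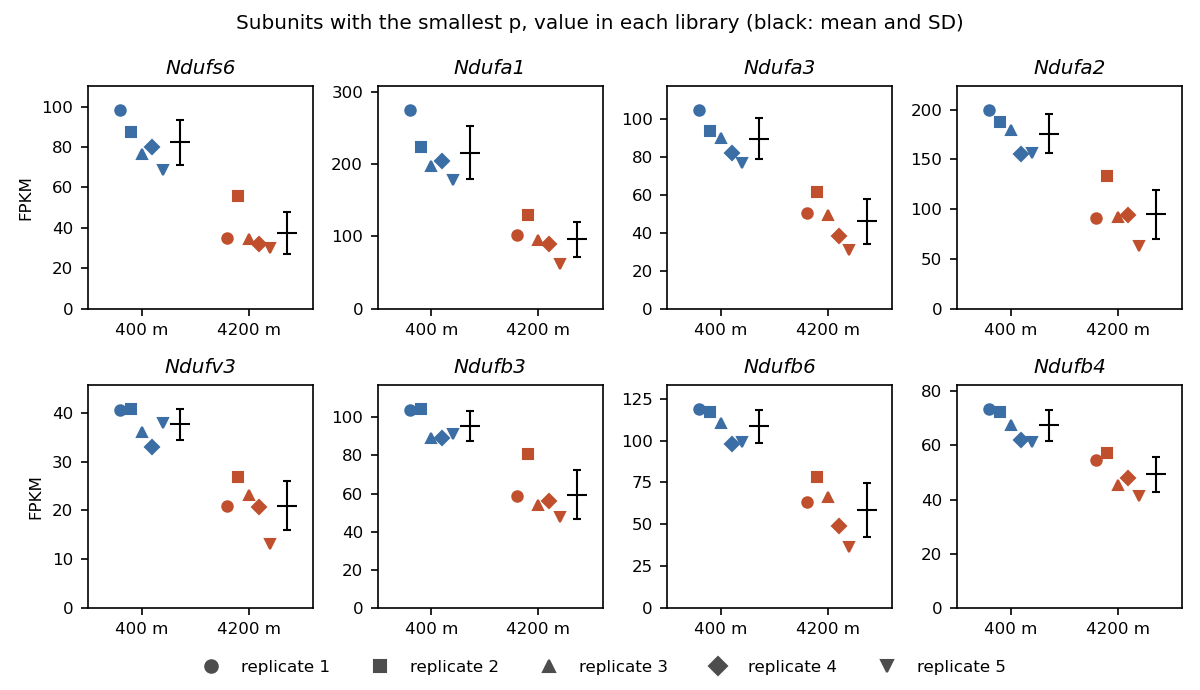
FPKM (vertical axes, from 0) of the 8 subunit genes with the smallest p in each of the 10 libraries, controls (400 m) on the left and hypoxia (4200 m) on the right of each panel, with the mean and SD of each group in black and the replicate given by the symbol. No hypoxia point reaches the lowest control in any panel, and in all 8 the highest hypoxia point is replicate 2.

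The assembly factors act on different parts. Ndufaf3, a partner of Ndufaf4 in building the Q module, had 14.0, 14.5, 12.1, 11.7 and 12.5 FPKM in controls and 9.49, 10.3, 10.6, 11.0 and 9.58 FPKM in hypoxia. The groups did not overlap, and hypoxia replicate 4 was the highest of its group (log2 fold change -0.33 with an SE of 0.0764, adjusted p = 0.0236 by limma, and -0.33 without replicates 4 and 5). Ndufaf2, a relative of Ndufa12 that is replaced by it when the N module is added, had 5.31, 5.34, 4.66, 4.58 and 4.22 FPKM in controls and 3.72, 3.97, 3.53, 2.80 and 2.36 FPKM in hypoxia. All hypoxia libraries were lower, replicates 4 and 5 most of all (log2 fold change -0.51 with an SE of 0.128, adjusted p = 0.0307 by limma, and -0.33 without them). An antisense gene that overlaps 65.6% of its exon bases, B230220B15Rik, was listed at 0 in all libraries.

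Ndufaf8, a partner of Ndufaf5, had 28.1, 27.7, 24.6, 23.8 and 21.8 FPKM in controls and 14.6, 23.7, 19.1, 16.6 and 14.5 FPKM in hypoxia. Its groups overlapped through hypoxia replicate 2, and the call was lost without replicates 4 and 5 (log2 fold change -0.52 with an SE of 0.136, adjusted p = 0.0355 by limma with and 0.103 without them). The other 5 were not called. Ndufaf4 had a log2 fold change of -0.28, Ndufaf1, which works on the membrane arm, one of -0.19, and Ndufaf7, a methyltransferase, one of -0.19. Ndufaf5, which hydroxylates Ndufs7, and Ndufaf6 had log2 fold changes of -0.15 and -0.08, and that of Ndufaf6 was 0.07 without replicates 4 and 5.

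Ndufa4 and Ndufa4l2 carry the name of complex I subunits, but Ndufa4 is now known as a subunit of cytochrome c oxidase (complex IV), and Ndufa4l2 is its paralog and a known target of the hypoxia-inducible factors. Ndufa4 was at 302.6, 314.0, 292.5, 270.4 and 281.0 FPKM in controls and at 253.0, 254.2, 217.4, 207.6 and 151.9 FPKM in hypoxia. The groups did not overlap, but the gene was not called (log2 fold change -0.45 with an SE of 0.140, adjusted p = 0.0626 by limma). Ndufa4l2 was far lower, at 3.87, 3.73, 4.24, 4.67 and 2.91 FPKM in controls and 4.17, 6.03, 5.11, 6.64 and 3.16 FPKM in hypoxia. Its groups overlapped, and its log2 fold change of 0.31 was the only one above 0 among the tested members (SE 0.182, adjusted p = 0.284 by limma). Per 100 FPKM of Ndufa4 there were 1.34 ± 0.265 FPKM of Ndufa4l2 in controls and 2.33 ± 0.567 in hypoxia (SD, n = 5, exact two-sided permutation p = 0.0159 over 252 regroupings). Without replicates 4 and 5 the hypoxia mean was 2.12 and the exact permutation p was 0.0714 over 56 regroupings. Leaving both genes out, 14 of 36 subunit genes fell, with a median log2 fold change of -0.34.

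The libraries of each group did not lie at the same level. The median log2 difference of the 38 subunit genes from their control mean was 0.118, 0.1, -0.01, -0.119 and -0.071 in control replicates 1 to 5. In hypoxia replicates 1 to 5 it was -0.211, -0.176, -0.260, -0.285 and -0.762. Hypoxia replicate 5 thus lay far below the other 4, and it was the lowest of all 10 libraries for 36 of 38 subunit genes and 5 of 8 Ndufaf genes. Over the 2389 genes that averaged 20 FPKM or more the same median was -0.408 in replicate 5 and between -0.129 and -0.082 in the other hypoxia libraries. Replicate 5 was also the library with the highest B cell markers and, leaving Kap out, the lowest proximal tubule markers, and the part of these in its low values was not tested.

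The remaining hypoxia libraries were low as well. The number of subunit genes below the lowest control was 23, 21, 26, 30 and 36 of 38 in hypoxia replicates 1 to 5. In replicate 2, 2 subunit genes lay above the highest control, and in replicates 3 and 4 it was 1 each. No share of all tested genes was taken for these counts, or for the count of lowest values given above. Genes that averaged 20 FPKM or more were also lower in each hypoxia library. Their medians lay between -0.129 and -0.082 in replicates 1 to 4 and at -0.408 in replicate 5. How far the counts are particular to subunit genes was not tested. Groups of all 5 libraries did not overlap, hypoxia being lower, for 17 of 38 subunit genes and 2 of 8 Ndufaf genes, against 8.54% of all tested genes. Without replicates 4 and 5 the numbers were 18 and 2, against 11.8%. Both shares cover genes of every level, and none was taken over the abundant genes alone. Among controls, replicate 1 or 2 gave the highest value of all 10 libraries in 24 and 16 of the 46 tested members.

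**Figure D3:**
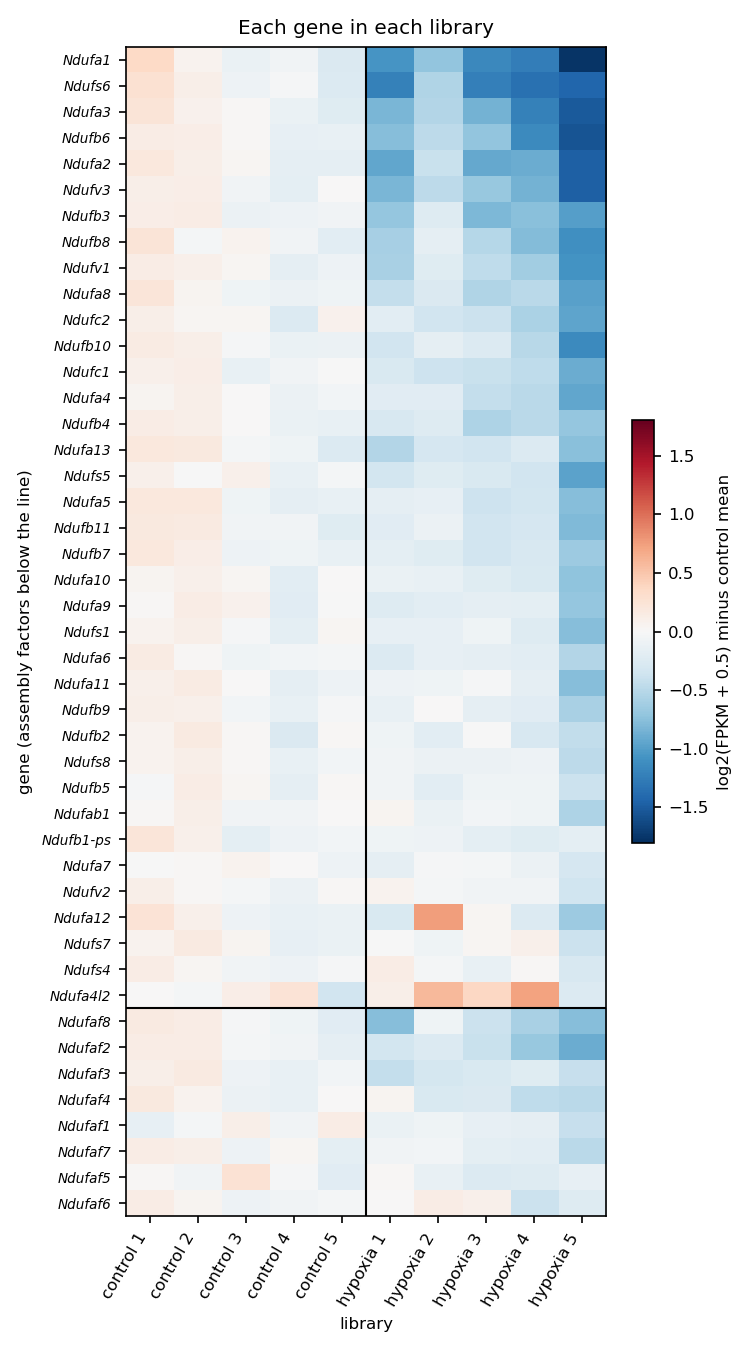
Log2(FPKM + 0.5) minus the control mean (colour) of 45 tested genes (rows, subunits above the line and assembly factors below it) in each library (columns). Blue fills the hypoxia columns for most rows and is darkest in hypoxia replicate 5, where Ndufa1 reached -1.77, while Ndufa12 in hypoxia replicate 2 gave the highest value, 0.75.

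The log2 fold changes of the subunit genes varied with gene length. Going by gene length, 7 of the 9 subunit genes of at most 1000 bases fell, with a median log2 fold change of -0.70 (-0.58 without replicates 4 and 5). The median was -0.24 for 16 subunit genes over 1000 and up to 2000 bases and -0.29 for 13 longer ones, of which 4 and 3 fell. Over all 249 tested genes of at most 1000 bases that averaged 20 FPKM or more, the median was -0.16 and 17.7% fell. The correlation across the 38 subunit genes between log2 length and log2 fold change was 0.429 (Pearson) and 0.463 (Spearman), and 0.422 (Pearson) without replicates 4 and 5. Across all tested genes it was -0.0679 (Pearson) and 0.0308 (Spearman). With the control level the Pearson correlation was -0.504 across the subunit genes and -0.392 across all tested genes. All genes share the same libraries and are no independent replicates, and the fold change and the control level share the control values.

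**Figure D4:**
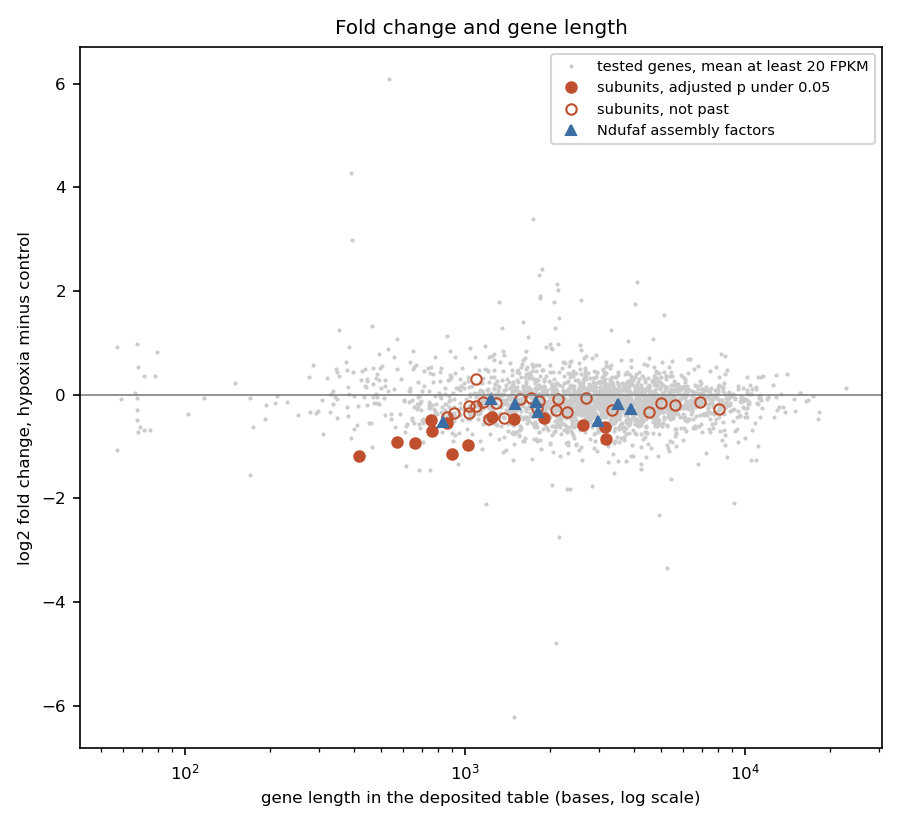
Log2 fold change (hypoxia minus control, vertical axis) against the gene length of the deposited table (horizontal log axis, bases) for tested genes that averaged 20 FPKM or more (grey), the 38 tested subunit genes (red circles, filled at an adjusted p under 0.05) and the 8 Ndufaf genes (blue triangles). The shortest subunit gene, Ndufa1 with 419 bases, is the lowest red circle.

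Copies elsewhere in the genome touch a few members. Ndufa12 was at 19.2 ± 2.33 FPKM in control and 19.1 ± 7.96 FPKM in hypoxia libraries, while the processed pseudogene Ndufa12-ps was at 132.2 ± 15.6 and 84.7 ± 20.6 FPKM (SD, n = 5, log2 fold change -0.67, limma adjusted p = 0.0297). The protein-coding row of Ndufab1, which encodes the acyl carrier protein of mitochondria, was at 16.0 ± 0.798 and 14.5 ± 2.21 FPKM, and Ndufab1-ps at 55.6 ± 12.1 and 63.7 ± 10.4 FPKM (SD, n = 5, limma adjusted p = 0.425). Gm4459, another copy of Ndufab1, was at 38.1 ± 4.03 and 37.6 ± 8.93 FPKM (SD, n = 5). For both members the pseudogene rows were above the gene in FPKM, which divides by length. Ndufab1 is listed with 6883 bases, and Ndufab1-ps and Gm4459 with 468 each, so FPKM does not order these rows by reads. How reads were shared between the genes and their copies is not given in the sources used here. Ndufs6b, a processed pseudogene that matches part of Ndufs6, was at 4.02 ± 1.35 and 5.51 ± 2.51 FPKM (SD, n = 5). Ndufb4c, a like copy of Ndufb4, was at 8.66 ± 1.41 and 7.90 ± 1.31 FPKM (SD, n = 5). Gm45930, which matches part of Ndufb3, and Gm16056, which matches part of Ndufb4, were listed at 0 in all libraries. Gm6444, which matches 50.0% of a transcript of Ndufb11, was at 0.671 ± 0.427 and 0.442 ± 0.221 FPKM, and Ndufs5-ps at 5.72 ± 2.06 and 3.35 ± 0.887 FPKM (SD, n = 5). In all, 12 members had a stretch that matches another annotated gene. Beside these 7 and Ndufs3 they were Ndufc1, Ndufaf2, Ndufaf7 and Ndufv3, where the match covered 10.6%, 11.7%, 6.17% and 6.98% of the longest transcript and 25, 24, 119 and 2 other genes carried it. The values of these members are uncertain to the extent that reads were split.

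The mitochondrial genome encodes the other 7 subunits of complex I, and none was called by limma or voom (0 of 7, also 0 at an unadjusted p under 0.05). Their median log2 fold change was 0.08, and 0.13 without hypoxia replicates 4 and 5. Without these libraries 0 of 7 were called as well, while 2 had an unadjusted p under 0.05, mt-Nd5 (0.27, limma adjusted p = 0.135) and mt-Nd6 (0.36, limma adjusted p = 0.0639), and the 3 hypoxia values of mt-Nd6 lay above all controls. For mt-Nd1 the log2 fold change was 0.08 (11762.5 ± 692.5 FPKM in control and 12529.9 ± 1910.0 FPKM in hypoxia libraries, SD, n = 5), for mt-Nd5 0.17 and for mt-Nd6 0.29 (limma adjusted p = 0.735, 0.478 and 0.237). For mt-Nd4 it was 0.08, turning to -0.15 after quantile normalization, and for mt-Nd2 it was -0.03, turning to values between 0.04 and 0.13 under 6 of the 22 alternatives. For mt-Nd3 it was -0.45, and for mt-Nd4l, which varied from 74.4 to 541.7 FPKM among the controls alone, it was -0.31.

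Of 13 further assembly factors of complex I without the Nduf name 3 fell and 0 rose, with a median log2 fold change of -0.13. Over all tested genes 7.79% fell and 3.66% rose. Without hypoxia replicates 4 and 5 it was 4 and 0, with a median of -0.07, beside 7.75% of all genes that fell. At an unadjusted p under 0.05, 5 were lower and 1 higher, against 16.8% and 12.3% of all tested genes. By voom 2 were called lower and 0 higher, against 6.07% and 5.12%. Timmdc1, which works on the membrane arm, fell from 14.9 ± 0.824 to 9.92 ± 1.57 FPKM (SD, n = 5, log2 fold change -0.58, limma adjusted p = 0.0071). Acad9, an acyl-CoA dehydrogenase relative that serves in the same assembly complex as Ndufaf1, fell from 11.0 ± 1.42 to 7.30 ± 1.01 FPKM (SD, n = 5, log2 fold change -0.56, limma adjusted p = 0.0109). Chchd4, which imports disulfide-bonded subunits such as Ndufa8 into the intermembrane space, fell from 8.10 ± 0.681 to 6.08 ± 1.01 FPKM (SD, n = 5, log2 fold change -0.40, limma adjusted p = 0.048). Acad9 and Timmdc1 were called under all 22 alternatives, whereas Chchd4 lost the call in 15 of them, 8 of these being the omission of 1 library (adjusted p up to 0.12). Ecsit, another member of that assembly complex, had a log2 fold change of -0.49 (limma adjusted p = 0.0744) and was called without replicates 4 and 5 (-0.32, limma adjusted p = 0.0340). Sfxn4 had one of 0.37 (limma adjusted p = 0.0668).

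Nuclear subunits of the later complexes had medians close to that of complex I. Of 34 tested subunit genes of complex III, complex IV and ATP synthase 8 fell and 0 rose (median log2 fold change -0.37), beside 7.79% of all tested genes and 18.0% of those that averaged 20 FPKM or more. At an unadjusted p under 0.05, 26 were lower and 0 higher (16.8% of all tested genes and 34.7% of the abundant ones were lower), and voom called 13 lower and 0 higher. Without hypoxia replicates 4 and 5, 10 of 34 fell (median -0.28), beside 7.75% of all genes and 16.9% of those that averaged 20 FPKM or more. Atp5k, a small subunit of ATP synthase, fell from 105.1 ± 12.9 to 45.4 ± 24.4 FPKM (SD, n = 5, log2 fold change -1.37, limma adjusted p = 0.0272, and -0.82 without replicates 4 and 5). Uqcr11, a small subunit of complex III, fell from 190.7 ± 27.9 to 99.2 ± 35 FPKM (SD, n = 5, log2 fold change -1.0, limma adjusted p = 0.0195). Leaving out 1 library ended the call of Atp5k in 5 cases (control replicates 1, 2, 3 or 5 or hypoxia replicate 4) and of Uqcr11 in 2 (control replicates 1 or 2), with adjusted p up to 0.072 and 0.0564. Cox4i1, a regulatory subunit of complex IV, had a log2 fold change of -0.19 (limma adjusted p = 0.342). For complex II 0 of 4 genes were called by limma or voom, 1 had an unadjusted p under 0.05, and the median was -0.28. Whether complex I differed from these lists was not tested.

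**Figure D5:**
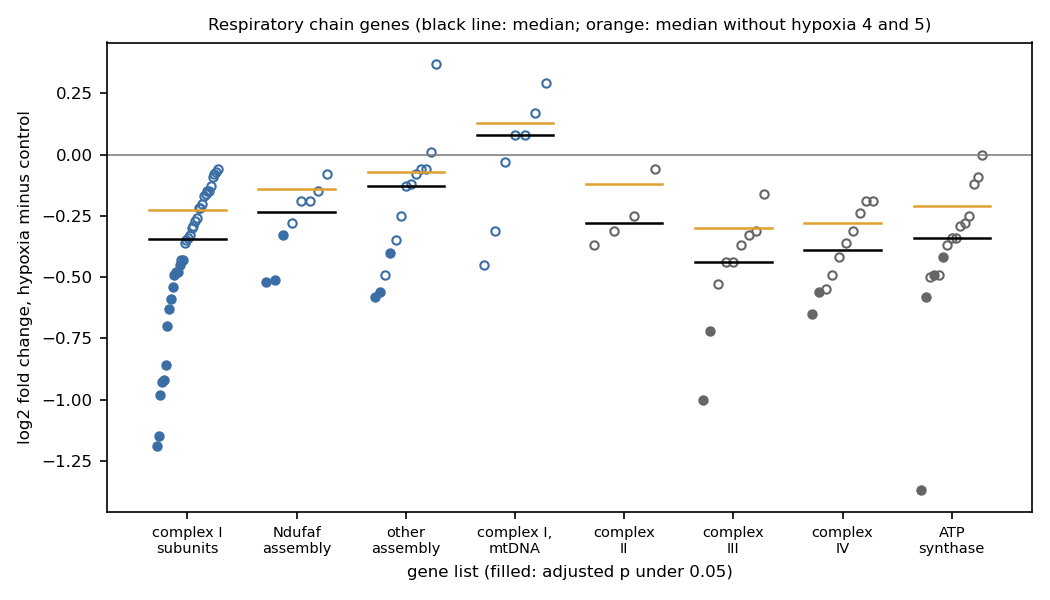
Log2 fold change (hypoxia minus control, vertical axis) of each gene in lists of the respiratory chain (horizontal axis), filled at an adjusted p under 0.05, with the median of each list over 10 libraries (black line) and without hypoxia replicates 4 and 5 (orange line). The medians of all lists of nuclear genes lie below 0, and that of the 7 genes of the mitochondrial genome lies at 0.08.

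Among 7 regulators of mitochondrial gene expression, 1 fell and 0 rose (1 lower and 0 higher at an unadjusted p under 0.05, and by voom). Over all tested genes 7.79% fell, 16.8% were lower at an unadjusted p under 0.05 and 6.07% were called lower by voom. The regulator that fell was Esrra, which encodes the estrogen-related receptor alpha, a transcription factor of respiratory chain genes. It had 37.8, 35, 32.4, 31.4 and 33.3 FPKM in controls and 21.9, 27.6, 22.4, 19.0 and 13.6 FPKM in hypoxia. Hypoxia replicate 2 was the highest and replicate 5 the lowest of their group (log2 fold change -0.72 with an SE of 0.156, adjusted p = 0.017 by limma, and -0.50 without replicates 4 and 5). Without control replicate 1 its adjusted p was 0.0503. Ppargc1a, its coactivator, had a log2 fold change of 0.24 and Tfam, a factor of the mitochondrial genome, one of 0.13 (limma adjusted p = 0.289 and 0.339).

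Markers of mitochondrial content did not move one way. The chaperone gene Hspd1 fell by 0.59 and the citrate synthase gene Cs by 0.28 on the log2 scale (limma adjusted p = 0.0284 and 0.0461). The import receptor gene Tomm20 rose from 32.7 ± 1.93 to 39.2 ± 2.29 FPKM (SD, n = 5, log2 fold change 0.26, limma adjusted p = 0.038), with all hypoxia libraries above all controls. With 1 library left out Hspd1 lost the call in 5, Cs in 9 and Tomm20 in 9 of 10 cases. Without hypoxia replicates 4 and 5 all 3 kept it (limma adjusted p = 0.0273, 0.0348 and 0.0202). Vdac1, the outer membrane channel, had a log2 fold change of -0.22 (limma adjusted p = 0.277). Of the other genes known for hypoxia in mitochondria, Higd1a fell from 14.3 ± 0.648 to 6.80 ± 1.21 FPKM (SD, n = 5, log2 fold change -1.03, limma adjusted p = 0.000772), and Cox4i2 was at 0.943 ± 0.476 and 1.39 ± 0.666 FPKM (SD, n = 5, limma adjusted p = 0.399).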

How the data were processed

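RNA sequencing of mouse kidney (5 control and 5 hypoxia libraries) was used as 1 table of FPKM values that the authors deposited for 55952 genes. The authors' table holds gene lengths in bases as well, which served to recover reads and to compare genes by length. The submitters' processing notes name HISAT2 2.0.5, an aligner, and hg38, a human build. All the same the identifiers are murine: 55141 were found in GENCODE M21, 99.4% of them with the same start and end (47 of 47 members), so coordinates are given as GRCm38. How reads were counted, with or without strand, and which library size scaled them is not given in the sources used here. FPKM multiplied by length gave whole reads (tolerance 0.05) for 99.988% of positive values once divided by the value of 1 read in that library. A gene of 1 kb needs 0.165 to 0.183 FPKM for 3 reads, which covers counting error only.

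Values were used as deposited. In R 4.3.3, limma 3.58.1 was fitted to log2(FPKM + 0.5) of genes whose mean reached 0.5 FPKM, with the group alone in the model and eBayes run with its trend and robust options. Tests were two-sided, adjusted by Benjamini-Hochberg over all genes fitted, and called at 0.05. Fold changes on this scale understate those of low genes. Copies were searched with blastn 2.17.0 (at least 95% identity over at least 100 bases), and plots made with Python 3.11.15 and matplotlib 3.10.9. The limma fit was tested on simulated data. No 2 libraries of a group agreed within sampling noise, so none was taken as a repeat sequencing of another. This cannot tell whether 2 libraries came from 1 mouse. Each library was counted as 1 sample. Alternatives covered pseudocount, filter, scaling, error model, voom on recovered reads, array weights, a replicate block and the omission of libraries. The members, lists and tests were chosen with earlier results of these data known. 1 tested member is counted in totals but not reported by itself here. The other members could be named, with values in every library for the 8 called subunits of smallest p, the called Ndufaf genes, Ndufa4 and Ndufa4l2, and ranges for core subunits. Genes outside the Nduf members and their copies or overlapping genes come from written lists, and those of them named were picked after their values were seen. Coa1 of the assembly factor list was not matched in the table.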

Additional observations from a re-analysis of the deposited data

Results flagged for a closer look

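In groups of 5, a library was listed here when its gap to the nearest other value exceeded 0.71 of the range of its group. Of 90 groups (45 genes in each condition) 9 met this, and 7 of the 9 were hypoxia replicate 5 as the lowest library. In a single group chance flags about 1 in 20. The 90 groups share the same libraries and are not independent, so their number cannot be set against that rate. In that library Ndufs8 was at 70.2 FPKM (next lowest 90.7), Ndufs1 at 22.4 FPKM (32.7) and Ndufs5 at 46.7 FPKM (72.0). Ndufa9 was at 52.7 FPKM (72.7), Ndufa11 at 30.4 FPKM (46.3), Ndufa6 at 56.9 FPKM (68.9) and the assembly factor Ndufaf1 at 13.9 FPKM (16.7). These genes share the library with the highest B cell and pancreas markers, and the part of these in the low values was not tested. Ndufs6 was at 55.8 FPKM in hypoxia replicate 2, with the next highest hypoxia library at 34.9 FPKM. Ndufc2 was at 96.3 FPKM in control replicate 4, with the next lowest control at 117.3 FPKM.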

How the results depend on the processing

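The subunit genes that fell were 22 with array quality weights, 8 with no filter on low values and 9 after quantile normalization, and 7 to 19 when 1 library was left out. The Ndufaf genes that fell were 0 with no filter, 0 after quantile normalization, 1 after rescaling without the 100 most abundant genes, 1 with voom, and 0 to 3 with 1 library left out. The medians with 1 library left out ran from -0.394 to -0.247 (subunits) and from -0.264 to -0.189 (Ndufaf). Complex I genes without the Nduf name that rose were 2 with array weights, 1 with eBayes without trend and robust, 1 after that rescaling and 0 to 1 with 1 library left out, and those that fell 5 with array weights and 2 to 5 with 1 library left out. Over all tested genes 1748 were called (1189 lower, 559 higher), 3253 with array weights (1944 lower, 1309 higher), 966 with no filter (703 lower, 263 higher), and 824 to 2724 with 1 library left out (603 to 1630 lower, 221 to 1094 higher). Rescaling without the 100 most abundant genes gave 770 lower and 919 higher, and voom 927 lower and 782 higher. The replicate block gave 999 (734 lower, 265 higher), 12 subunit genes and 2 Ndufaf genes. Same-numbered libraries deviated together with a correlation of only -0.0771 to 0.0861 and were not treated as pairs, and not every control correlated best with its own number.

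Some values of genes that were not called changed sign. Ndufa12 was at 0.02 with array weights and 0.17 without hypoxia replicates 4 and 5, and Ndufaf6 at 0.07 without them. Ndufs4 was at 0.03 after quantile normalization, 0.01 after rescaling and 0.01 with voom, Ndufs7 at 0.1, 0.0 and 0.0, and Ndufv2 at 0.08 after quantile normalization. For mt-Nd2 the values were 0.06 with array weights, 0.13 after quantile normalization, 0.04 after rescaling, 0.04 with voom and 0.06 without replicates 4 and 5, and for mt-Nd4 -0.15 after quantile normalization. With 1 library left out Ndufa12 ranged from -0.29 to 0.07, Ndufs7 from -0.11 to 0.01, mt-Nd2 from -0.09 to 0.1 and mt-Nd4l from -0.65 to 0.06. The cause was not tested. Of the 17 called members 10 lost the call under at least 1 alternative. Depth limits Ndufa4l2 most among the tested members, with as few as 53 reads in a library.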
